A study of Arabidopsis thaliana with 12 samples.

Results

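The low-sulfate change of root RNA that is left in slim1-1, a mutant line of Arabidopsis thaliana, was measured on 4 of the 12 Affymetrix arrays of the study. The arrays were taken by their sample titles, with no measured value in that choice, as 2 arrays of slim1-1 roots on low-sulfate agar (S15) and 2 arrays of slim1-1 roots on sulfate-sufficient agar (S1500). S1500 agar had 1500 µM of MgSO4 added and S15 agar had 15 µM, on top of about 10 µM of sulfate that remained in the washed agar. Roots were taken from 10-day-old plants kept at 22 °C with 16 h of light and 8 h of darkness.

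All 3 lines of the study are Columbia plants that carry a GFP reporter driven by the SULTR1;2 promoter, SULTR1;2 being a sulfate transporter gene of the root. The parental line with that transgene alone is called P here, and the labels give 2 arrays for each combination of line and medium. The slim1-1 line was isolated from P because its GFP signal did not respond to low sulfate, so the loss of a low-sulfate response was the ground on which this line was picked. The same holds for slim1-2, the other mutant line. Every slim1-1 value therefore comes from 1 isolated line that also carries the transgene, as its parent does.

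SLIM1, also known as EIL3, belongs to the EIN3-like transcription factors and is a regulator of the sulfur deficiency response of roots. Plants that run short of sulfate take up more of it, release sulfur from stored compounds and restrict the synthesis of glucosinolates, the sulfur-rich defence compounds of cabbage relatives. Sulfate is activated by ATP sulfurylase, reduced to sulfite and then sulfide, and built into cysteine, from which methionine and glutathione are made.

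Values are log2 signals after quantile normalization over the 12 arrays, and a change is the S15 mean minus the S1500 mean in 1 line. A probe set was called where the Benjamini-Hochberg adjusted p of limma was under 0.05 over 13647 tested probe sets, which had a mean log2 signal above 5.77. Each ± gives a standard error (SE) of the limma fit to all 12 arrays. This SE pools the spread of the 6 groups and is not the spread of 1 line. Array medians ran from 65.65 to 174.95 before normalization, and from 83.65 to 110.8 on the slim1-1 arrays. After it, the correlation between replicate arrays was 0.982 to 0.988, and that between arrays from unlike groups was 0.964 to 0.987, so replicates stood apart from other pairs by little. In what follows, "S1500 array 1" and the like mean a slim1-1 array by its replicate number unless P or slim1-2 is named, and calls were repeated with each of the 12 arrays left out in turn. The probe annotation gave 1 gene for 7332 of the tested probe sets (53.73%), and only these are named. SLIM1 itself, the sulfate transporters and the APS reductases are not analysed here, so the mutated gene gave no check of the labels.

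Low sulfate changed 300 probe sets in slim1-1, of which 110 rose and 190 fell. Median centring in place of quantile normalization gave 67 higher and 209 lower. The called share was 2.20% of the tested probe sets, with 0.806% higher and 1.39% lower, beside 3.84% in P (524 probe sets, 1.78% higher) and 3.05% in slim1-2 (416 probe sets, 1.06% higher and 1.99% lower). The changes ran from -3.76 to 8.04 with a median size of 0.67, and 24 rises and 39 falls were at least 2-fold. Each of the 300 called probe sets had S1500 and S15 arrays that did not overlap. With 2 arrays a group, a call nearly requires such a separation, so it is no further support for a change. Probe sets without a change can show it too, and its share over all tested probe sets was not counted. The median change over all tested probe sets was 0.002. A gene could be named for 51 of the rises and 76 of the falls. Leaving out S1500 array 1 or 2 lowered the number of calls to 137 or 160, and leaving out S15 array 1 or 2 lowered it to 177 or 172. It was 187 when the 4 slim1-1 arrays were fitted alone and 24 without normalization between arrays.

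The 2 named markers of sulfur deficiency, of 10 in that list, still rose in slim1-1. Both passed the test, with a median change of 2.75. SDI2, the sulfur deficiency induced 2 gene (AT1G04770), read 8.18 and 7.76 on the S1500 arrays and 10.32 and 10.43 on the S15 arrays. The S15 arrays were clearly apart from the S1500 arrays. SDI2 rose by 2.41 ± 0.146 (SE of the fit to 12 arrays, 2 arrays a group), which is 5.3-fold (limma adjusted p = 1.65e-07). In P it rose by 1.95, and the difference of 0.45 between the lines (95% interval 0.01 to 0.9) was not called (limma adjusted p = 0.7).

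BGLU28 (AT2G44460), a beta-glucosidase and a widely used marker of sulfur deficiency, read 4.35 and 4.56 on S1500 and 7.63 and 7.49 on S15. Its groups were far apart as well. The S1500 means of BGLU28 were below the filter value of 5.77 in all 3 lines, so it passed the filter through its S15 arrays. BGLU28 rose by 3.10 ± 0.204 in slim1-1, or 8.59-fold (limma adjusted p = 3.56e-07). In P the same probe set read 11.31 and 11.29 on S15 and was not above the control probe sets on S1500, so the rise there was at least 177-fold. With 64 added to every signal, which by construction shrinks changes of dim probe sets, the slim1-1 change of BGLU28 was 1.55.

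The named genes of sulfate activation and reduction fell or did not pass the test. Of the 3 named members, out of 12 in the list, 0 rose, 2 fell and 1 was not called, with a median change of -0.50. ATPS4 (AT5G43780), an ATP sulfurylase that makes APS from sulfate, read 11.03 and 11.23 on S1500 and 10.41 and 10.50 on S15. Both S15 arrays were below both S1500 arrays, and ATPS4 fell by 0.67 ± 0.0936 on the log2 scale (limma adjusted p = 0.000943). SIR (AT5G04590), the sulfite reductase that makes sulfide, read 10.72 and 10.37 on S1500 and 10.03 and 10.06 on S15 and fell by 0.50 ± 0.114 (limma adjusted p = 0.0351). Its groups did not overlap, but the call was lost in 5 of the 12 fits, when either S1500 array of P (-0.50), S1500 array 1 (-0.32), S15 array 1 (-0.48) or S15 array 2 (-0.52) was left out. ATPS3 (AT4G14680), another ATP sulfurylase, read 7.12 and 7.22 on S1500 and 7.00 and 7.28 on S15. These groups overlapped, with a change of -0.03 ± 0.141 (limma adjusted p = 0.975). In P it rose by 0.75, and the difference between the lines was not called (limma adjusted p = 0.189).

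**Figure D1:**
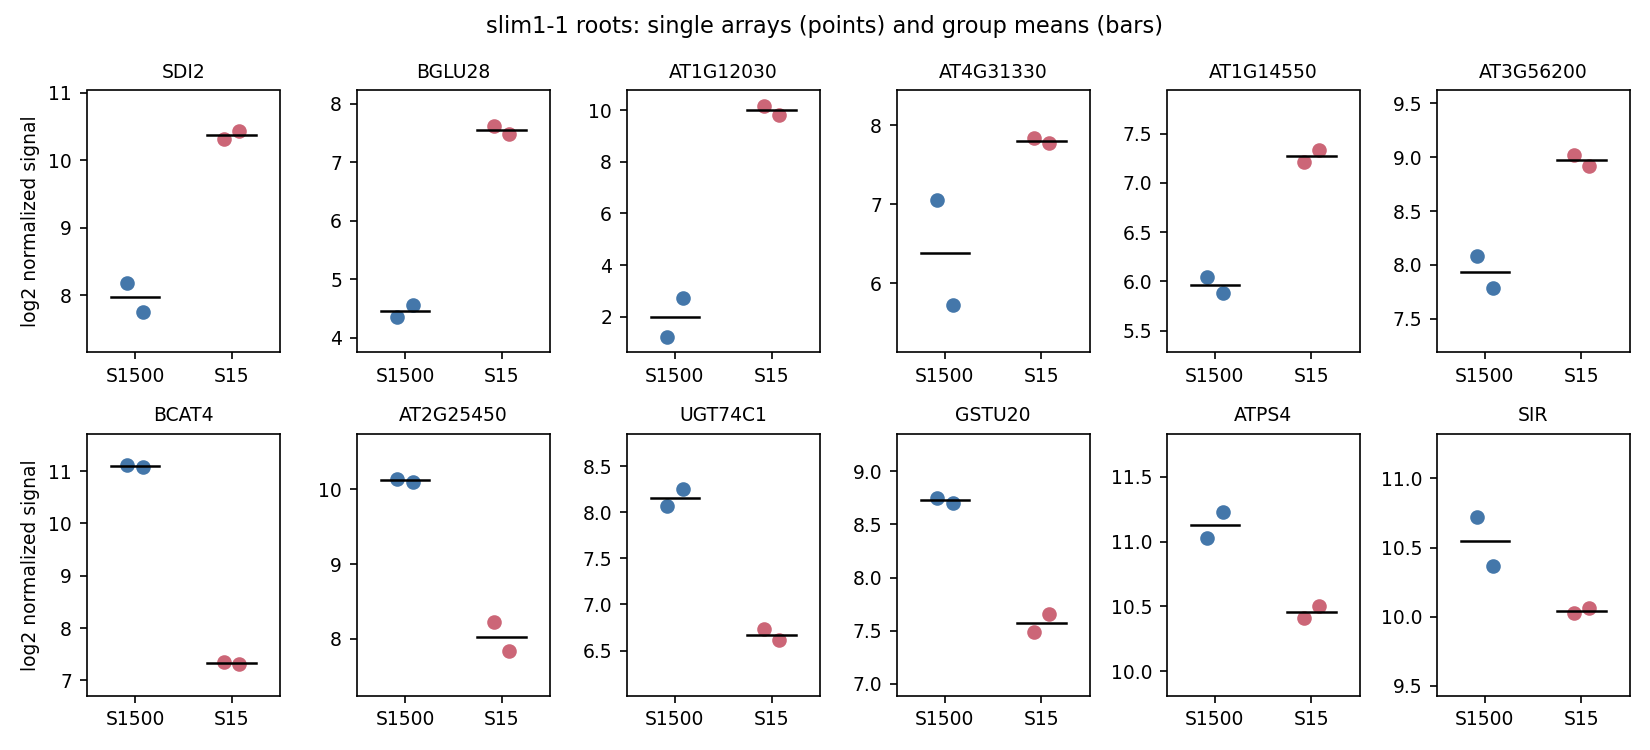
Log2 normalized signal of 12 genes on the 4 slim1-1 arrays. Points are single arrays, bars are means of 2 arrays, and each panel has its own vertical range. All 12 genes were called in slim1-1, and a call nearly requires arrays that do not overlap. The separation in every panel is therefore no further support. The spread between replicates was widest for AT1G12030 and AT4G31330 on S1500.

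The tested members of 2 lists of glucosinolate synthesis fell in slim1-1, and the 2 largest named falls were of genes of that pathway. All 3 tested members of the aliphatic list of 25 fell, with a median change of -1.49. Both tested members of the core and indolic list of 13 fell, with a median change of -0.61. The remaining named member of the aliphatic list, AOP3, was too dim to be tested. BCAT4 (AT3G19710), the aminotransferase that starts the chain elongation of methionine toward aliphatic glucosinolates, read 11.11 and 11.07 on S1500 and 7.36 and 7.31 on S15. The replicates lay within 0.1 of each other in both groups. BCAT4 fell by 3.76 ± 0.106, or 13.5-fold (limma adjusted p = 4.8e-11).

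The other tested members of the aliphatic list act later in the pathway. UGT74C1 (AT2G31790), a glucosyltransferase, read 8.07 and 8.25 on S1500 and 6.73 and 6.61 on S15, a fall of 1.49 ± 0.148 (limma adjusted p = 4.04e-05). GSTU20 (AT1G78370), a glutathione S-transferase of the aliphatic branch, read 8.75 and 8.70 on S1500 and 7.49 and 7.66 on S15, a fall of 1.14 ± 0.116 (limma adjusted p = 4.84e-05). Neither gene had overlapping groups. AT2G25450, the dioxygenase gene known as GSL-OH that hydroxylates the side chain of aliphatic glucosinolates, was no member of the list but was the named gene with the second largest fall. It read 10.14 and 10.10 on S1500 and 8.22 and 7.84 on S15, a fall of 2.09 ± 0.157 (limma adjusted p = 1.86e-06).

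Both tested genes of the core list fell as well. UGT74B1 (AT1G24100), the glucosyltransferase of the core structure, read 9.12 and 9.25 on S1500 and 8.60 and 8.51 on S15, a fall of 0.63 ± 0.114 (limma adjusted p = 0.00807). PAPST1 (AT5G01500), a carrier that exports the sulfate donor PAPS from plastids, read 8.57 and 8.40 on S1500 and 7.91 and 7.87 on S15, a fall of 0.59 ± 0.111 (limma adjusted p = 0.00979). Groups did not overlap for either gene. The UGT74B1 call ended with S1500 array 2 (-0.57) or S15 array 2 (-0.58) left out. The PAPST1 call ended with S1500 array 1 (-0.51), S15 array 1 (-0.61) or S15 array 2 (-0.58) left out. PYK10, a beta-glucosidase of the ER bodies and the single tested gene of the glucosinolate breakdown list, had a change of 0.00 (limma adjusted p = 0.99).

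Among all named genes the rise of largest size was that of AT1G12030, a gene known here only by its locus code. It read 1.22 and 2.71 on S1500, which was not above the control probe sets on either array, and 10.17 and 9.83 on S15. The rise was therefore at least 64.4-fold (fitted change 8.04 ± 0.482, limma adjusted p = 1.58e-07). In P the rise was at least 31.4-fold, and the difference between the lines was not called (limma adjusted p = 0.912). With 64 added to every signal the change was 3.99. The gene dropped below the filter, and so was not tested, whenever an S15 array of any line was left out.

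Other named rises were those of 2 peroxidase genes and an expansin gene. AT1G14550, a class III peroxidase gene, read 6.04 and 5.88 on S1500 and 7.21 and 7.34 on S15 and rose by 1.32 ± 0.149 (limma adjusted p = 0.000147). AT5G64120, the peroxidase gene PRX71, read 6.68 and 6.97 on S1500 and 7.91 and 7.87 on S15 and rose by 1.07 ± 0.15 (limma adjusted p = 0.001). The groups of both peroxidase genes did not overlap. AT5G64120 changed by 0.05 in P and by 0.06 in slim1-2, but the difference from P, 1.02, was not called (limma adjusted p = 0.0638), nor was the difference from slim1-2, 1.01 (limma adjusted p = 0.178). EXPA8 (AT2G40610), an expansin that loosens cell walls, read 4.82 and 5.54 on S1500 and 6.55 and 6.53 on S15 and rose by 1.36 ± 0.245 (limma adjusted p = 0.00777). Its call ended with S1500 array 1 left out (1.00), and EXPA8 fell below the filter, and so was not tested, in the 5 fits without either S15 array of slim1-1 or slim1-2 or without S15 array 1 of P. The call held in the other 6 fits. With 64 added to every signal its change was 0.64 and that of AT1G14550 was 0.79.

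AT4G31330 read 7.05 and 5.73 on S1500 and 7.84 and 7.77 on S15. The S1500 replicates were further apart from each other than those of any other named rise except AT1G12030, and the change was 1.41 ± 0.279 (limma adjusted p = 0.0147). It was 0.75 with S1500 array 2 left out, and leaving out S15 array 1 (1.38) or S15 array 2 (1.45) ended the call. AT3G56200, a gene of the amino acid transporter family, read 8.08 and 7.79 on S1500 and 9.02 and 8.92 on S15 and rose by 1.04 ± 0.126 (limma adjusted p = 0.000276). It rose by 1.77 in P, and the difference between the lines was not called (limma adjusted p = 0.15).

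The other 4 of the 12 highest named changes were AT4G14020 (1.24), AT5G46560 (1.04), AT2G33710, a gene of the ERF family of transcription factors (1.03), and AT2G02610 (0.87), with limma adjusted p from 0.0257 to 0.0376. Each of these calls depended on single arrays. The S1500 means of AT4G14020 were below the filter value of 5.77 in every line, so it passed the filter through its S15 arrays. Leaving out S1500 array 1 (0.85), S15 array 1 (1.31) or S15 array 2 (1.17) ended the call of AT4G14020. That of AT5G46560 ended with S1500 array 1 (0.97), S1500 array 2 (1.11) or S15 array 2 (0.78) left out, and leaving out any slim1-1 array (0.91 to 1.17) ended that of AT2G33710. The call of AT2G02610 ended with any P array (0.87), S1500 array 1 (0.69), S1500 array 2 (1.05) or S15 array 2 (0.60) left out. With 64 added to every signal the changes of these 4 genes were 0.58, 0.63, 0.56 and 0.56, and that of AT4G31330 was 0.92.

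After AT2G25450, AT1G21440 had the largest size of the named falls outside the glucosinolate lists. It read 10.57 and 10.48 on S1500 and 8.54 and 8.39 on S15 and fell by 2.06 ± 0.117 (limma adjusted p = 8.04e-08). AT2G28780 fell by 1.26, AT5G01740 by 1.25 and AT3G45700, a gene of the nitrate and peptide transporter family, by 1.09, and these calls held whichever array was left out. AT1G33055 fell by 1.14, AT2G47560, a gene for a RING-type protein, by 1.08 and AT4G25835 by 1.05. Leaving out S1500 array 2 ended the calls of these 3 genes (-0.94, -0.96 and -0.81), and leaving out S15 array 2 also ended that of AT4G25835 (-0.91). AT2G23910 fell by 1.18 (limma adjusted p = 0.0429). Its call ended in 9 of the 12 fits, with any P array (-1.18 to -1.17), S1500 array 1 (-0.94), S1500 array 2 (-1.42), S15 array 2 (-0.75) or either S15 array of slim1-2 (-1.18) left out. With 64 added to every signal the changes were -0.64 for AT2G47560, -0.57 for AT4G25835 and -0.63 for AT2G23910.

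Probe sets with no gene in the annotation were also among the calls. The 2 highest of them rose by 4.92 and 4.07 in slim1-1, beside 6.12 and 6.34 in P. The 2 lowest changed by -3.64 and -3.62, beside -3.52 and -4.58 in P.

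**Figure D2:**
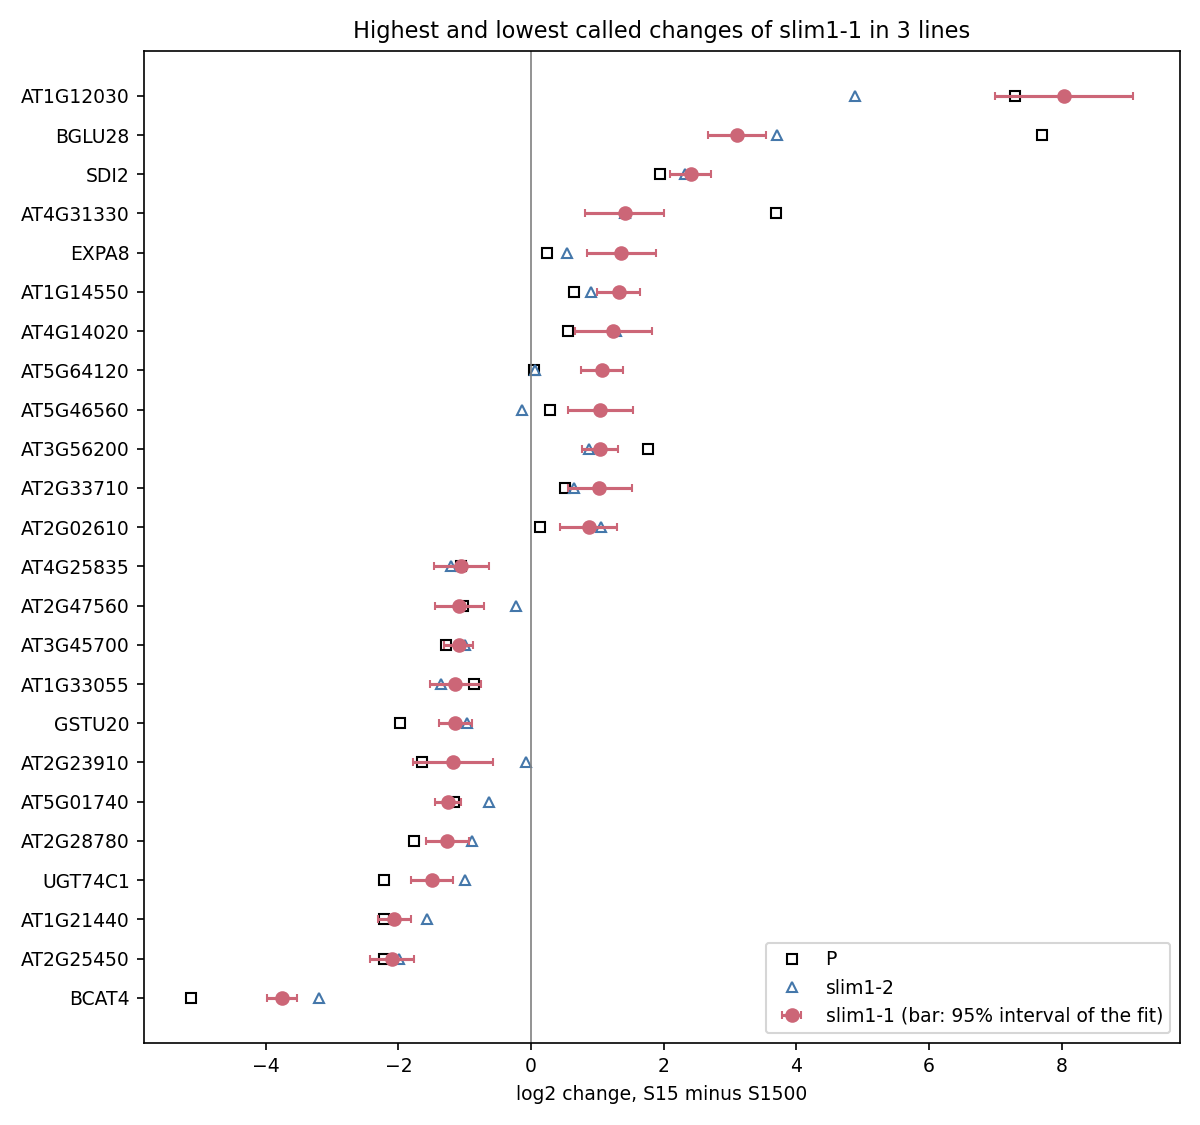
Log2 change from S1500 to S15 of the 12 highest and 12 lowest named calls of slim1-1. Filled circles are slim1-1 with the 95% interval of the fit, squares are P and triangles are slim1-2. All changes are fitted values, and those of AT1G12030 in slim1-1 and P and of BGLU28 in P start from S1500 signals not above the control probe sets. The genes were picked by their calls in the same fit, so slim1-1 intervals to 1 side of 0 follow from that choice. SDI2 is 2.41 in slim1-1 against 1.95 in P.

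Most lists of neighbouring pathways held few named genes. The lists of sulfate transporters, cysteine and glutathione synthesis, jasmonate, nitrate, phosphate starvation, non-hair epidermis and stele held 0 genes named here and are not analysed here. In methionine metabolism, a list of 15, 0 of 4 named genes were called in slim1-1, with a median of 0.04. Over all tested probe sets 2.20% were called, so that count is no result about the list. MGL (AT1G64660), the methionine gamma-lyase that breaks methionine down, read 7.66 and 7.71 on S1500 and 7.73 and 7.81 on S15, a change of 0.08 ± 0.136 (limma adjusted p = 0.914). CBL, the cystathionine beta-lyase on the way to methionine, changed by -0.33 (limma adjusted p = 0.0631), HMT1, a homocysteine methyltransferase, by 0.04 and MMT, a methionine methyltransferase, by 0.03. Of 2 glutathione S-transferases outside the glucosinolate lists, GSTU22 (AT1G78340) rose by 0.71 (limma adjusted p = 0.000396), from 9.40 and 9.26 on S1500 to 10.05 and 10.04 on S15. GSTU25 read 9.74 and 9.12 on S1500 and 9.83 and 10.29 on S15, a change of 0.63 that was not called (limma adjusted p = 0.281).

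The other lists held 1 tested gene each, and 0 of these genes were called in slim1-1. With 2.20% of all tested probe sets called, 0 calls among so few genes is no result about these lists. The changes were 0.00 for EIN3, the ethylene regulator of the family that SLIM1 belongs to, and 0.36 for GRXS9, a CC-type glutaredoxin. GRXS9 rose by 2.26 in P, but the difference of -1.91 between the lines was not called (limma adjusted p = 0.352). The changes were 0.02 for CCS, the copper chaperone of superoxide dismutase, 0.02 for UGT78D2, a flavonoid glucosyltransferase, and 0.06 for IAA18, an auxin response repressor. PYE, a regulator of iron homeostasis, changed by -0.08. Adjusted p of limma for these 6 genes was 0.858 or more.

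Of the root cell type markers that could be tested, 0 were called in slim1-1, beside 2.20% of all tested probe sets. With so few markers, that count is no result about cell types. The summed signal of the 2 named root hair markers, EXPA7 and EXPA18, ran from 413.8 to 445.5 on the S1500 arrays and from 408.6 to 448.2 on the S15 arrays, so the groups overlapped. The changes were -0.01 for EXPA7 and 0.01 for EXPA18 in slim1-1, beside 0.76 and 0.78 in P, and the differences between the lines were not called (limma adjusted p = 0.249 and 0.0751). SGN3, an endodermis marker, changed by 0.17 and was not called, and CO2, a cortex marker, was too dim to be tested. In roots taken as a whole, fewer cells of a type and less RNA per cell cannot be told apart.

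Shoot markers were measured to see how much green tissue the roots held. The 3 of 19 markers named here are RCA, the rubisco activase, and LHCB4.1 and LHCB4.2, antenna proteins of photosystem II. Their summed signal ran from 790.9 to 843.3 on the slim1-1 S1500 arrays and from 704.3 to 797.1 on the S15 arrays. These groups overlapped, and 0 of the 3 markers were at or below the control probe sets on any array. The sum was already lower in slim1-1 on S1500 than in P on S1500 (1310 to 1499) or slim1-2 on S1500 (1334 to 1352). LHCB4.2 fell by 0.70 ± 0.153 in slim1-1 (limma adjusted p = 0.0274), from 6.85 and 6.58 to 6.09 and 5.93. Leaving out S1500 array 1 (-0.57), S15 array 1 (-0.78) or S15 array 2 (-0.62) ended the call, as did adding 64 to every signal (-0.39). RCA changed by -0.14 and LHCB4.1 by 0.05, neither called. The part of shoot tissue in the falls listed above was not tested.

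The slim1-1 change was next set against that of its parent, on arrays that the lines do not share. Of the 110 rises in slim1-1, 63 were also called higher in P (57.3% of the slim1-1 rises and 25.9% of the 243 P rises). Of the 190 falls, 132 were also called lower in P (69.5% of the slim1-1 falls and 47% of the 281 P falls). The probe sets that rose in P had a median change of 0.69 in P, 0.27 in slim1-1 and 0.21 in slim1-2. Those that fell in P had a median change of -0.65 in P, -0.43 in slim1-1 and -0.39 in slim1-2. In slim1-1 the change had the sign seen in P for 205 of 243 rises (84.4%) and 261 of 281 falls (92.9%). The share with the same sign over all tested probe sets was not counted, so these shares are a description. The P calls were chosen by the P values, so the P medians are a description. Over the 13647 tested probe sets the changes in slim1-1 and P correlated at 0.57, and those in slim1-1 and slim1-2 at 0.55, as descriptions across probe sets that share their arrays.

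A direct test of the difference in response, slim1-1 minus P, called 57 probe sets (0.418%), 14 higher (0.103%) and 43 lower (0.315%). Without normalization between arrays it called 0 higher and 9 lower, and the median difference over all 13647 probe sets was -0.24. Of the 57, 40 rose in P and changed less or the other way in slim1-1, and 13 fell in P and changed less or the other way in slim1-1. Only 1 was called in P with a change of larger size in slim1-1, and 3 were not called in P. Of the 57, 23 were also called in slim1-1 itself. The P arrays enter both the P call and the difference, which favours a smaller change in slim1-1, so the split by the P call is a description.

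**Figure D3:**
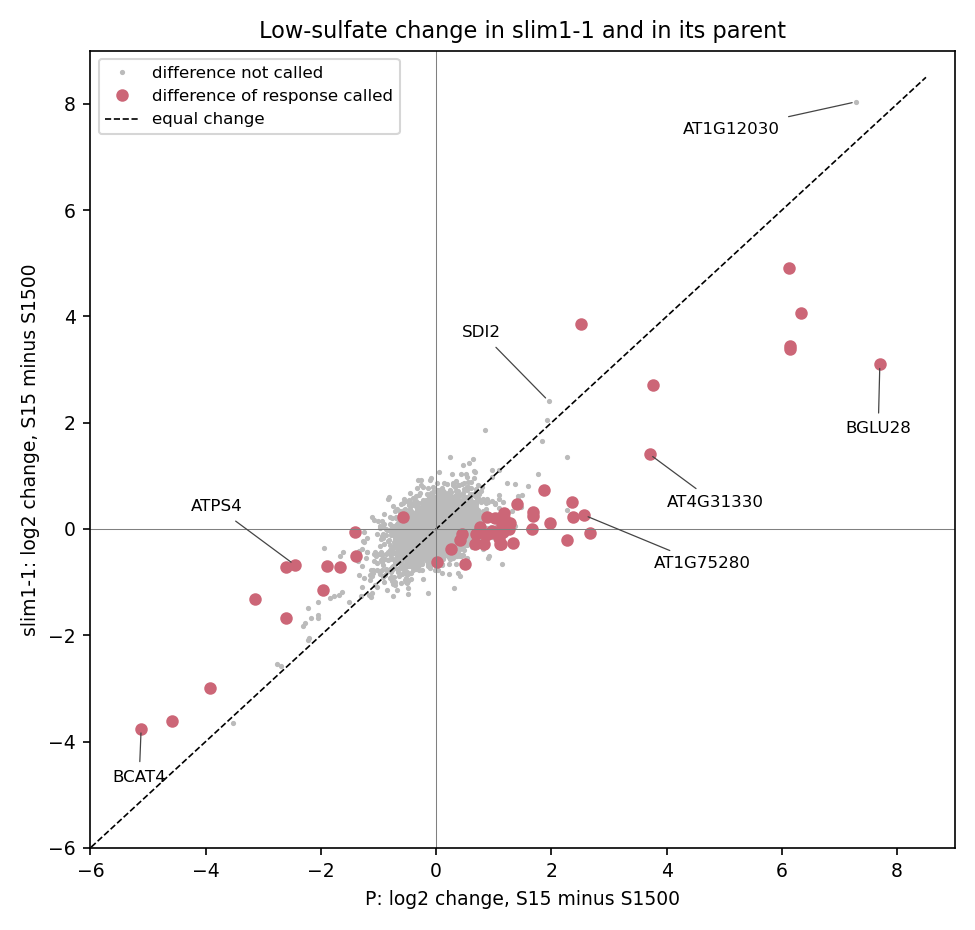
Log2 change from S1500 to S15 in P (horizontal) and in slim1-1 (vertical) for the 13647 tested probe sets. Red points are the 57 whose difference between the lines was called, and the dashed line marks equal change. Most red points lie nearer to 0 on the slim1-1 axis than on the P axis, as for ATPS4 at -0.67 against -2.46.

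Among the rises of P for which the slim1-1 change was lower was that of BGLU28. It rose 8.59-fold in slim1-1 (3.10 on the log2 scale) and at least 177-fold in P (at least 7.47), and the difference was called (limma adjusted p = 9.64e-07). The fitted difference of -4.60 has no exact size, since BGLU28 was not above the control probe sets on either S1500 array of P. AT1G75280, an isoflavone reductase-like gene, read 9.57 and 9.65 on S1500 and 9.92 and 9.83 on S15 in slim1-1, but 9.50 and 9.48 on S1500 and 12.08 and 12.05 on S15 in P. The line P stood out on S15 alone, and the difference was -2.31 ± 0.112 (limma adjusted p = 1.34e-07). AT4G33960 changed by -0.27 in slim1-1 and 1.34 in P, a difference of -1.60 ± 0.162 (limma adjusted p = 0.000172). These 3 calls held whichever array was left out, but that of AT4G33960 ended without normalization between arrays (-1.86).

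The difference was also called, with a lower change in slim1-1, for 4 further named genes that rose in P, and each of these calls depended on single arrays. AT4G31330 rose by 1.41 in slim1-1 and 3.70 in P and differed by -2.29, and leaving out any P array or either S15 array of slim1-1 ended the call (-2.36 to -2.22). AT3G49960, a peroxidase gene, changed by 0.24 in slim1-1, which was not called, and by 1.68 in P. It differed by -1.44, and leaving out S15 array 2 of P or any slim1-1 array ended the call (-1.51 to -1.34). AT5G36270, which RefSeq lists as a transcribed pseudogene, changed by -0.28 in slim1-1, which was not called, and by 1.11 in P, a difference of -1.39. Its call ended with S1500 array 2 of P, either S15 array of P or any slim1-1 array left out (-1.45 to -1.09), and its difference was -0.83 with 64 added to every signal. MGL changed by 0.08 in slim1-1, which was not called, and 1.14 in P and differed by -1.06 (limma adjusted p = 0.0249), and leaving out S1500 array 1 of P, either S15 array of P or any slim1-1 array ended the call (-1.15 to -0.92). On S1500, MGL already read 7.66 and 7.71 in slim1-1 against 6.77 and 7.05 in P.

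The falls of P that were smaller in slim1-1 included 3 sulfur genes. ATPS4 changed by -2.46 in P and -0.67 in slim1-1, a difference of 1.79 ± 0.132 (limma adjusted p = 5.7e-06). BCAT4 changed by -5.12 in P and -3.76 in slim1-1, a difference of 1.36 ± 0.15 (limma adjusted p = 0.00041). Both calls held whichever array was left out, but both ended without normalization between arrays (1.54 for ATPS4 and 1.2 for BCAT4), and with 64 added to every signal the BCAT4 difference was 0.88. GSTU20 differed by 0.83 ± 0.164 (limma adjusted p = 0.0457), and leaving out any P array but S15 array 2, any slim1-1 array or either S15 array of slim1-2 ended the call (0.71 to 0.91). For AT2G25450, AT1G21440 and UGT74C1 the difference between slim1-1 and P was not called, at 0.12 (limma adjusted p = 0.973), 0.15 (limma adjusted p = 0.934) and 0.73 (limma adjusted p = 0.306).

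The 4 probe sets outside these classes were chosen after their values were seen. A probe set with no gene in the annotation rose from 7.37 and 7.12 on S1500 to 11.01 and 11.18 on S15 in slim1-1 (3.85), but by 2.51 in P, a difference of 1.33 ± 0.155 (limma adjusted p = 0.000584). It also rose more in slim1-1 than in slim1-2 (0.89, limma adjusted p = 0.0463). AT5G19120, an aspartyl protease gene, changed by -0.62 in slim1-1 and 0.01 in P, a difference of -0.63 (limma adjusted p = 0.0346). AT3G19390, a cysteine protease gene, changed by -0.38 in slim1-1 and 0.26 in P, a difference of -0.64 (limma adjusted p = 0.0226). Another probe set with no gene changed by -0.65 in slim1-1 and 0.51 in P, a difference of -1.16 (limma adjusted p = 0.0483). The call of AT5G19120 ended with any P or slim1-1 array left out (-0.67 to -0.59). That of AT3G19390 ended with any slim1-1 array or replicate 1 of either P group left out (-0.66 to -0.58). The call of the probe set with a difference of -1.16 ended in 11 of the 12 fits, S15 array 2 of slim1-1 being the array without which it held (-1.25 to -0.99), and it was -0.70 with 64 added to every signal.

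In slim1-1, 35 rises (31.8%) and 33 falls (17.4%) were called in neither of the other lines. By the direct tests of limma 0 of these probe sets differed from P and 0 from slim1-2. At an unadjusted p under 0.05 of limma, 17 of the 35 rises and 17 of the 33 falls differed from P, and 13 and 12 from slim1-2. Over all 13647 tested probe sets the counts were 953 for P and 734 for slim1-2. The 35 and 33 were chosen by calls on the same arrays, which favours such differences, so their counts are no support for one. A call in slim1-1 alone was therefore not shown to be a difference between the lines.

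Few differences between slim1-1 and slim1-2 passed the test. Of the slim1-1 rises, 53 were also called in slim1-2 (48.2%, or 36.6% of the 145 slim1-2 rises), and of the falls 123 (64.7%, or 45.4% of the 271 slim1-2 falls). In all 3 lines 41 rises and 98 falls were called. The direct test of slim1-1 minus slim1-2 called 15 probe sets (0.110%), 13 higher (0.0953%) and 2 lower (0.0147%), of which 2 have a gene. Of the 13, 11 fell in slim1-2 and were not called in slim1-1. The count was 0 without normalization between arrays by limma, with 197 at an unadjusted p under 0.05, and it ran from 4 to 14 with 1 array left out.

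AT1G09310 differed most between the mutant lines among named genes. In slim1-1 it read 4.51 and 4.34 on S1500 and 3.98 and 3.81 on S15, the last not above the control probe sets. In slim1-2 it read 7.93 and 7.29 on S1500 and 3.91 and 3.75 on S15, a fall of at least 10-fold, while in P it was between 7.36 and 7.87 on all 4 arrays. The gene was thus low in slim1-1 on both media and low in slim1-2 on S15 alone. The difference in response was called (limma adjusted p = 0.000876). The fitted size, 3.25, or 1.62 with 64 added to every signal, is not exact, since both S15 arrays of slim1-2 and 1 of slim1-1 were not above the control probe sets. The gene fell below the filter, and so was not tested, in 6 of the 12 fits with an array left out, those without a P array or an S1500 array of slim1-2. The call ended without normalization between arrays (2.72).

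ChiC (AT4G19810), a class V chitinase, read 8.28 and 8.39 on S1500 and 9.07 and 9.06 on S15 in slim1-1, but 9.26 and 9.50 on S1500 and 8.65 and 9.0 on S15 in slim1-2. It rose by 0.73 in slim1-1 and by 0.53 in P and fell by 0.55 in slim1-2. The difference between the mutant lines was 1.28 ± 0.186 (limma adjusted p = 0.0188). Leaving out any slim1-1 array (1.22 to 1.33), S15 array 1 of slim1-2 (1.1) or S1500 array 2 of slim1-2 (1.16) ended the call, and the value was 0.70 without normalization between arrays. The summed shoot markers of slim1-2 ran from 1334 to 1352 on S1500 and from 804.3 to 845.3 on S15. In P the sum was 1310 to 1499 on S1500 and 1108 to 1118 on S15, while in slim1-1 the groups overlapped. The part of the shoot markers in these differences was not tested.

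**Figure D4:**
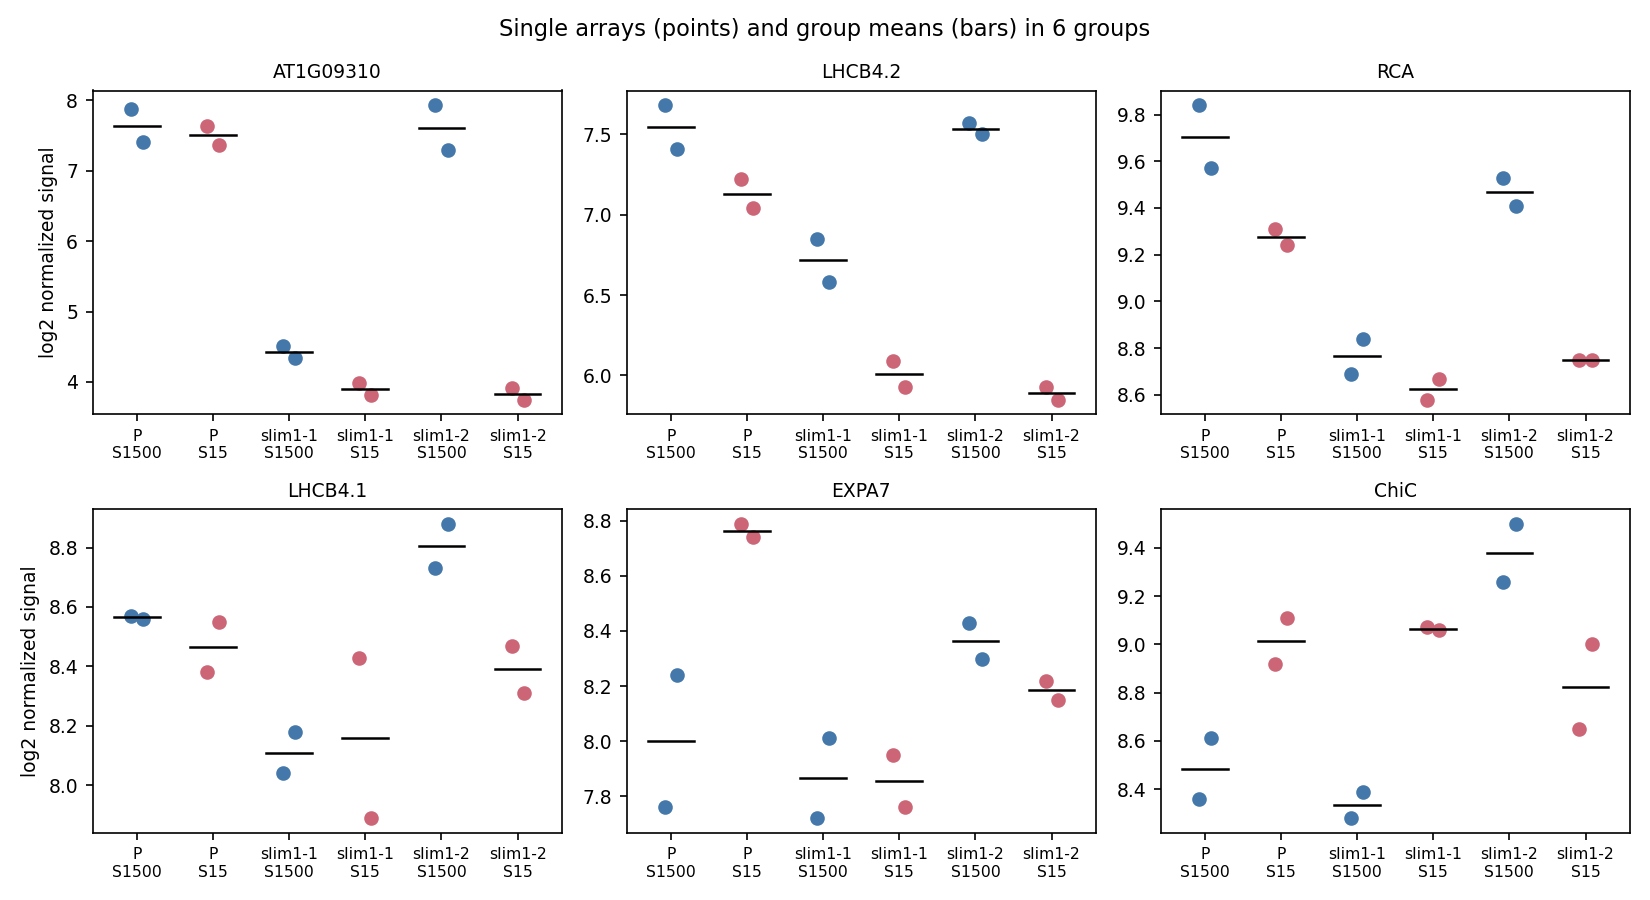
Log2 normalized signal of AT1G09310, 3 shoot markers (LHCB4.2, RCA, LHCB4.1), the root hair marker EXPA7 and ChiC in the 6 groups. Points are single arrays and bars are means of 2 arrays, each panel with its own vertical range. AT1G09310 lies near 4 in slim1-1 on both media and in slim1-2 on S15 and above 7 in the other 3 groups.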

How the data were processed

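RNA of roots was labelled with biotin and hybridised to 12 Affymetrix arrays, per the labels. What the authors deposited is 1 linear intensity for each probe set on each array, computed in MAS5 according to the submitters' processing notes. Which version and scaling target they used is not given in the sources used here. The range was 0 to 12184.5. Values under 1 were raised to 1 before the log2 step and quantile normalization. The table has 22810 probe sets. Without its 64 AFFX controls 22746 remained, and 13647 passed the filter at the 40th percentile of the mean. A probe set was not above background where it was no brighter than the brightest of 27 Bacillus control probe sets of that array (log2 3.29 to 4.74). A fold written as "at least" sets the bright group's mean against, per array, the higher of this bound and the dim probe set's own value.

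Group means of all 12 arrays were fitted with limma 3.58.1 in R 4.3.3 (eBayes, trend on mean signal, residual df 6, prior df 7.763), two-sided, and the procedure was tested on simulated data. The number of arrays limits the precision. The labels call replicates biological but do not say what was separate, so p-values measure the spread between these arrays. Same-numbered arrays of different groups deviated together weakly or not at all (correlations of -0.12 to 0.23 over 15 pairs of groups). The numbers were therefore not used to pair the arrays in the main fit. Whether same-numbered arrays shared a batch cannot be told from these correlations. The alternatives were other normalizations, filters, pseudocounts and fits, a replicate block, and each array left out in turn.

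Of 13513 probe sets with 1 annotated gene, 13436 matched RefSeq's TAIR10.1 gene table, while 503 had several genes and 8794 were not listed. Named were the 12 highest and 12 lowest called changes, taken from calls whose S15 and S1500 arrays did not overlap. All 300 calls in slim1-1 met that condition. Also named were the 6 highest and 6 lowest called differences from P and the 4 highest and 4 lowest from slim1-2. Up to 4 called genes of each of 24 lists were added (40 of 216 entries named, 29 tested). A short list of sulfur genes was added whatever their values. Fewer genes were named where fewer passed. The members and lists were chosen with earlier results of these data known.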

Additional observations from a re-analysis of the deposited data

Results flagged for a closer look

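The low-sulfate change differed by a direct test between slim1-1 and P for 14 named probe sets, as differences in log2 change with limma adjusted p under 0.05. It was higher, or less negative, in slim1-1 for ATPS4 (1.79), BCAT4 (1.36), a probe set with no gene (1.33) and GSTU20 (0.83). It was lower in slim1-1 for BGLU28 (-4.60), AT1G75280 (-2.31), AT4G31330 (-2.29), AT4G33960 (-1.60), AT3G49960 (-1.44), AT5G36270 (-1.39), another probe set with no gene (-1.16), MGL (-1.06), AT3G19390 (-0.64) and AT5G19120 (-0.63). Of these 14, the calls of ATPS4, BCAT4, the probe set at 1.33, BGLU28, AT1G75280 and AT4G33960 held whichever array was left out, and the other 8 did not. Under all settings run, the calls of BGLU28 and AT1G75280 alone held, since 11 of the 14 ended without normalization between arrays and 7 without a filter. Between slim1-1 and slim1-2 it differed for AT1G09310 (3.25) and ChiC (1.28), and 0 of these 2 calls held under all settings. The sizes for BGLU28 and AT1G09310 are fitted values that rest on groups not above the control probe sets.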

How the results depend on the processing

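Of the 30 named calls of the slim1-1 response, 16 held in each fit with 1 array left out that tested them, and 6 held under all settings that tested them (AT1G12030, BGLU28, SDI2, BCAT4, AT2G25450 and AT1G21440), as did 2 of the 14 named differences from P and 0 of the 2 from slim1-2. AT1G12030 was tested in 15 settings only, while BGLU28 was tested in 22 and SDI2 in 23. Both AT1G12030 and BGLU28 passed the filter through their S15 arrays alone. The setting without a filter is free of that choice (limma adjusted p = 2.24e-05 for AT1G12030 and 2.71e-05 for BGLU28). Without normalization between arrays the counts were 24 in slim1-1, 65 in P (40 higher), 35 in slim1-2 (28 higher, against 145 of 416), 9 for slim1-1 minus P (0 higher) and 0 for slim1-1 minus slim1-2, while the named slim1-1 changes moved by at most 0.09. That setting shifted the median of all probe sets by 0.26 in P and 0.61 in slim1-2 but 0.02 in slim1-1, and it turned ATPS3 in slim1-1 to 0.01 and, for slim1-1 minus slim1-2, ATPS4 to -0.50, SIR to -0.47, SDI2 to -0.48 and MGL to -0.18. The 4 slim1-1 arrays alone gave 187 calls for the slim1-1 response. That fit ended 6 of its 30 named calls, those of AT4G31330, AT4G14020, AT2G02610, AT2G23910, SIR and LHCB4.2 (limma adjusted p from 0.0591 to 0.12). Slim1-1 minus P gave 35 without an intensity trend, and slim1-1 minus slim1-2 gave 5 without a filter, 8 with a filter at the 60th percentile and 4 without an intensity trend. With 1 array left out the counts ran from 137 to 321 in slim1-1, 270 to 556 in P, 196 to 387 in slim1-2, 38 to 60 for slim1-1 minus P and 4 to 14 for slim1-1 minus slim1-2. With 1 array left out, the uncalled values that changed sign ran from -0.17 to 0.11 for ATPS3 in slim1-1 and, for slim1-1 minus slim1-2, from -0.03 to 0.17 for ATPS4, -0.06 to 0.29 for SIR, -0.12 to 0.30 for SDI2 and -0.22 to 0.05 for ATPS3. The replicate block gave 310, 59 and 12 calls for slim1-1, its difference from P and that from slim1-2, and of the named calls it ended that of GSTU20 against P (0.83, limma adjusted p = 0.0601). Fits without the slim1-2 groups, and the counts of P and slim1-2 under these settings, were chosen after seeing the data. Causes were not tested, except that fewer arrays leave fewer degrees of freedom by construction. Dim probe sets have less certain changes, since their signal lies near that of the controls.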
